A study of Arabidopsis thaliana with 6 samples.

Results

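Histones are the proteins around which nuclear DNA is wound, and 41 Arabidopsis thaliana loci for core, variant and linker histones were followed here. They were chosen by locus, as genes of histones H1, H2A, H2B, H3 and H4 and their variants. Earlier results of these data were known when they were chosen. Of these loci, 12 had a probe set assigned to them alone: 9 of 10 H2B loci and 3 of 3 H1 loci. A further 16 loci were represented only by 13 shared probe sets, each annotated to every locus of 1 variant together: 5 probe sets for the 5 H3.1 loci, 5 for the 8 H4 loci and 3 for the 3 H3.3 loci. The other 13 loci, which are HTB9 and the 12 H2A loci, had no probe set in the annotation used and were not analysed here. The 25 histone probe sets stand among 22746 probe sets without the array's controls.

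Whole seedlings of the Columbia ecotype, 10 d old and raised on agar plates under a cycle of 16 h light and 8 h dark, were moved to liquid medium for 8 h. In 3 samples that medium contained the synthetic auxin 2,4-D at 1e-07 M together with 1e-06 M brassinazole, which blocks the synthesis of brassinosteroids. In the other 3 samples it held 1e-07 M 2,4-D alone, so auxin was present in all 6 samples and no response to auxin itself was measured. Per the labels' protocols, batches of 3 seedlings were extracted, their RNA was pooled, and 6 µg went into the labelling for 1 Affymetrix array per sample. The titles call the samples biological replicates. If they came from 1 pool of seedlings, the p-values measure only technical spread.

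Core histones form an octamer of H2A, H2B, H3 and H4, and linker histone H1 binds the DNA where it enters and leaves that octamer. Replication-type histones (H3.1, H4, canonical H2A and H2B) are made mainly in S phase to package newly copied DNA, so their transcripts are widely used as a sign of dividing cells. Replacement-type histones (H3.3 and H2A.Z) are made throughout the cell cycle and enter chromatin independently of replication. In plants the replication-type transcripts are polyadenylated, and root tips, lateral root primordia and young leaves hold most dividing cells of a seedling. Auxin is known to start divisions of lateral root founder cells, and brassinosteroids are known to act on cell elongation and on root meristem size. The comparison asks how transcripts of auxin-treated seedlings, and here those of histones, differ when brassinosteroid synthesis is inhibited.

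No histone probe set passed the test between seedlings given auxin plus brassinazole and those given auxin alone. After a filter on dim signals, 24 of the 25 were tested, and 0 of 24 had a limma adjusted p under 0.05, against 7.52% of all 17059 probe sets tested (3.44% higher and 4.08% lower with brassinazole). At an unadjusted limma p under 0.05 there were 3 of 24, against 21.9% of all probe sets (10.5% higher and 11.4% lower). These 3 were HTB11 and an H4 probe set, with values higher with brassinazole, and HIS1-3, with lower values. In 7 of 24 every array of 1 group was above every array of the other, against 27.2% of all probe sets. The changes of the 24 ran from -0.46 to 0.31 on the log2 scale, with a median of 0.09, against a median of -0.01 over all probe sets. The 95% interval of the change lay within 1 log2 unit of 0 for 24 of 24, and within 0.5 log2 units for 20 of 24, against 16648 and 11813 of the 17059 tested. For its standard error, a histone probe set would have passed at a measured log2 change of 0.25 to 0.62, with a median of 0.31. These limits are on the measured change. With 3 arrays a group, a true change near or above its limit could therefore still be missed.

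**Figure D1:**
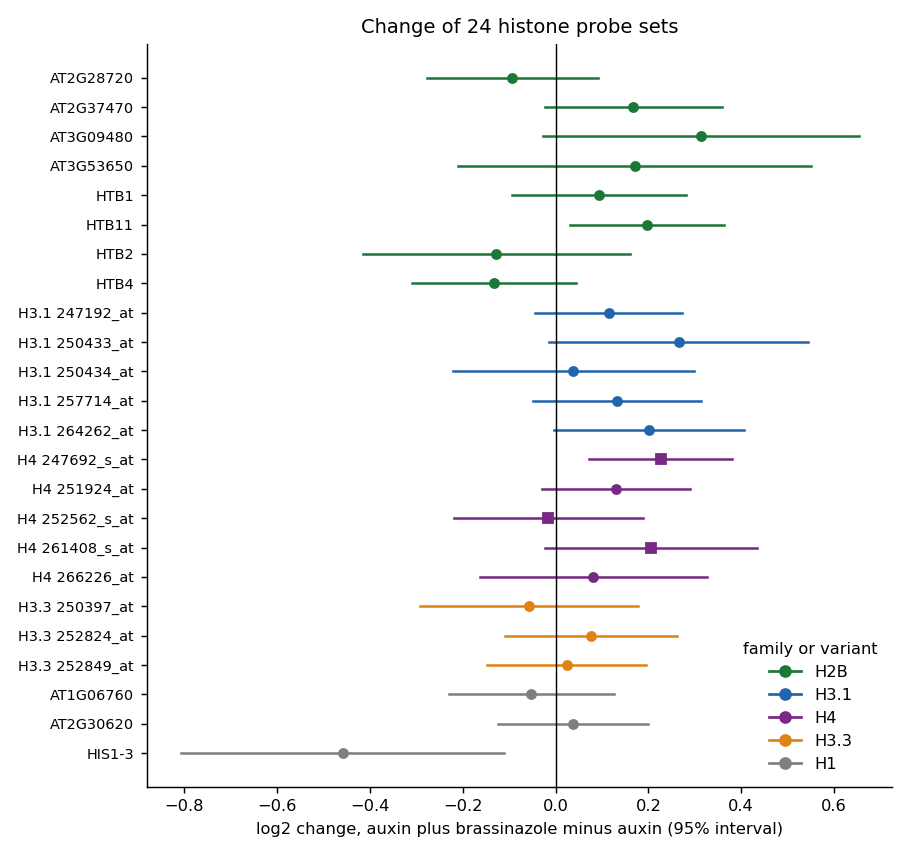
Log2 change of the 24 histone probe sets tested, auxin plus brassinazole minus auxin, with the 95% interval of the limma fit (3 arrays a group); squares are probe sets with the suffix _s_at. Of the 24 intervals, 3 leave out 0: those of HTB11, H4 247692_s_at and HIS1-3.

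Facts of the arrays that bear on these values are few. Over all probe sets, Spearman correlations were 0.9854 to 0.9893 among brassinazole arrays, 0.9875 to 0.9885 among auxin arrays and 0.9808 to 0.9854 between the groups. Auxin replicate 1 stood apart in the 25S rRNA control, at 981 against 174 to 215 on the other arrays, and brassinazole replicate 3 had the lowest median signal, 188 against 192 to 195. The 5S rRNA control read 230 to 284 with brassinazole and 134 to 174 with auxin alone, and the ratio of 3' to 5' actin controls was 18.8 to 21.1 and 12.3 to 17.3 in 1 set of controls, but 2.21 to 2.43 and 2.31 to 2.52 in the other. For ubiquitin, the first set of controls gave ratios of 2.59 to 3 with brassinazole and 3.14 to 3.54 with auxin alone, apart in the other direction. Whether these controls bear on the histone values was not tested. Seedling tissue was checked by markers. Of the 7 listed green leaf markers only RCA, Rubisco activase, had a probe set of its own. RCA read 22950 to 29050 with brassinazole and 24530 to 25760 with auxin alone. PYK10, a beta-glucosidase abundant in roots, read 14490 to 17350 and 13500 to 17410 in the same order. Of the 9 listed root markers 3 were measured, with a summed signal of 14840 to 17710 with brassinazole and 14030 to 17860 with auxin alone, but PYK10 makes up nearly all of that sum. The list's median log2 change was -0.37. EXPA7 and EXPA18, expansins of root hair cells, read 147 to 162 and 163 to 204 with brassinazole and 173 to 223 and 206 to 307 with auxin alone, so neither overlapped. Their log2 changes were -0.37 and -0.44, with limma adjusted p of 0.0916 and 0.0806. Thus 0 of 3 root markers passed, against 7.52% of all probe sets, and 2 of 3 were lower at an unadjusted p under 0.05, against 11.4%. Without auxin replicate 3, EXPA18 passed, with a log2 change of -0.60 and an adjusted limma p of 0.024. Whether root hair cells bear on the histone values was not tested. In RNA of whole seedlings, a different number of dividing cells and a different amount of histone RNA per cell cannot be told apart, in either direction.

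H2B, a core histone that pairs with H2A, was the best resolved family, with 9 loci that each have a probe set of their own, none of them with the suffix _s_at or _x_at. Where the annotation used gives no gene symbol, the family was assigned from the established list of Arabidopsis histone loci. H2B genes are close relatives of each other, so the probe sets may share signal. Of the 8 tested, 5 had a positive and 3 a negative log2 change, with a median of 0.13, and 0 passed. The values did not overlap between the groups in 3 of the 8, which are HTB11, AT2G37470 and AT3G09480, all above with brassinazole; such a gap occurs in 12.9% of all probe sets tested.

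HTB11 had signals of 1516, 1481 and 1607 with brassinazole and 1328, 1325 and 1356 with auxin alone. Every brassinazole array was thus above every auxin array, by a log2 change of 0.20 ± 0.08 (SE) with a limma adjusted p of 0.148. AT2G37470 read 461, 447 and 463 with brassinazole and 407, 393 and 416 with auxin alone. Its groups were also apart, with a log2 change of 0.17 and an adjusted limma p of 0.297.

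AT3G09480 read 148, 146 and 210 with brassinazole and 108, 144 and 142 with auxin alone. Brassinazole replicate 3 was high and auxin replicate 1 low, and the remaining 4 arrays lay between 142 and 148. Its log2 change of 0.31 ± 0.16 (SE) was the highest among the histones, with an adjusted p of 0.271 in limma, and was 0.16 without brassinazole replicate 3 and 0.04 without that array and auxin replicate 1.

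HTB4 had a negative log2 change, with signals of 2483, 2410 and 2473 with brassinazole and 2424, 2845 and 2828 with auxin alone. Auxin replicate 1 lay among the brassinazole arrays, and the log2 change was -0.13 ± 0.08 (SE), with an adjusted limma p of 0.387. It was -0.21 without that array. HTB2 read 308, 280 and 360 with brassinazole and 387, 383 and 278 with auxin alone. Its groups overlapped, with auxin replicate 3 the lowest of all 6 arrays, and its log2 change was -0.13 with an adjusted p of 0.642 in limma. The HTB2 change was -0.28 without that array and -0.22 without brassinazole replicate 3, but only -0.05 without auxin replicate 1 or brassinazole replicate 2 and -0.06 without auxin replicate 2. Unlike these, AT2G28720 was even, at 607, 632 and 660 with brassinazole and 695, 686 and 647 with auxin alone. Its groups still overlapped, through auxin replicate 3, and its log2 change was -0.09 with an adjusted p of 0.589 in limma.

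HTB1 averaged 942 ± 74.2 with brassinazole and 881 ± 29.5 with auxin alone, and AT3G53650 averaged 102 ± 21.6 and 87.9 ± 15.6. In both genes the groups overlapped, at log2 changes of 0.09 for HTB1 and 0.17 for AT3G53650, and neither passed. AT5G02570, the dimmest of the 9, was left out by the filter, with signals of 3.50, 54.9 and 39.3 with brassinazole and 20.6, 38.8 and 12.5 with auxin alone. Its values scattered within both groups, and with no filter its log2 change of 0.14 had an adjusted p of 0.922 in limma.

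**Figure D2:**
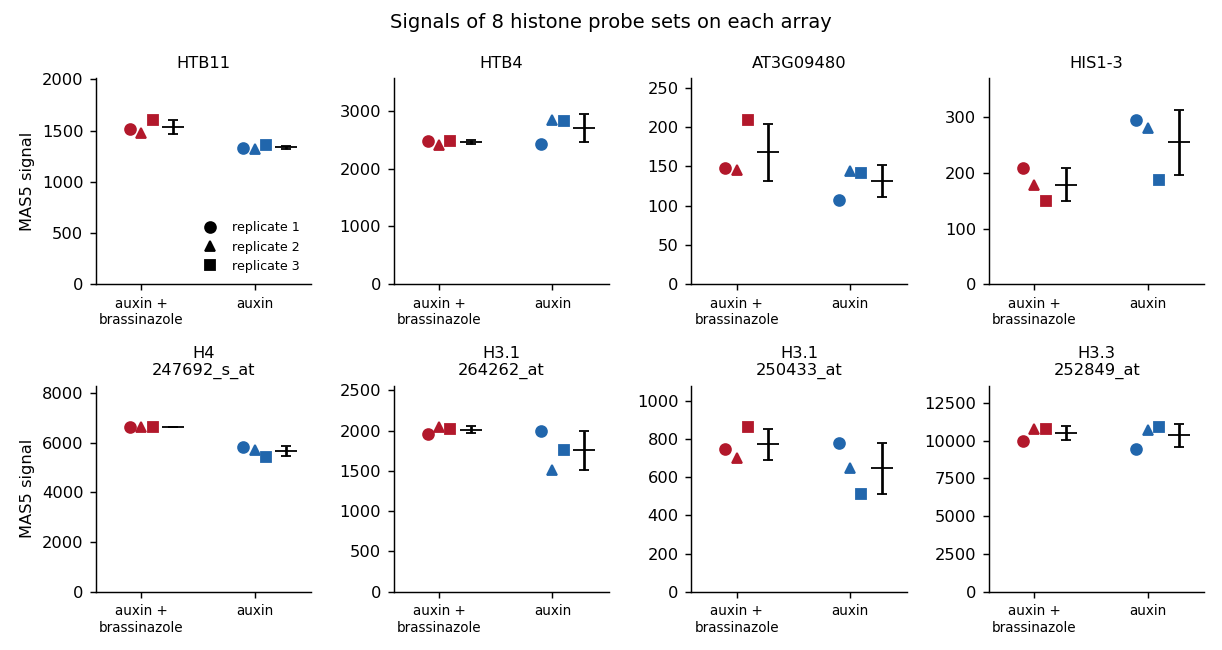
MAS5 signal of 8 histone probe sets on each of 3 auxin plus brassinazole arrays (red) and 3 auxin arrays (blue), with the mean and SD of each group as black bars; each axis starts at 0. The groups are apart for HTB11, AT3G09480 and H4 247692_s_at and overlap in the other 5 panels.

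H3.1, the H3 form laid down behind the replication fork, is encoded by 5 loci. The annotation used ties all 5 loci to the same 5 probe sets, so no single H3.1 gene can be named from it. All 5 probe sets had a positive log2 change, of 0.04 to 0.27 with a median of 0.13, against 47.3% positive changes over all probe sets tested. None of the 5 passed with limma, nor did any at an unadjusted p under 0.05. All 5 are annotated to the same loci, though none has the suffix _s_at or _x_at. They may read the same transcripts, so they need not be 5 separate measurements.

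The H3.1 probe set with the lowest p, 264262_at, read 1960, 2043 and 2019 with brassinazole and 1989, 1512 and 1759 with auxin alone. Auxin replicate 1 lay within the brassinazole range, and the log2 change was 0.20 ± 0.10 (SE), with an adjusted p of 0.235 in limma. Without auxin replicate 2 it was 0.10. Probe set 250433_at read 751, 704 and 864 with brassinazole and 778, 650 and 514 with auxin alone. Its groups overlapped through the same auxin array, and its log2 change was 0.27 with an adjusted p of 0.255 in limma. It was 0.11 without auxin replicate 3 and 0.41 without auxin replicate 1.

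The groups were apart for the H3.1 probe sets 247192_at and 257714_at. The first averaged 1966 ± 16.4 with brassinazole and 1815 ± 46.2 with auxin alone (SD, n = 3 each), and the second 583 ± 6.19 and 531 ± 11.1. These gaps were small: the log2 change was 0.11 for 247192_at and 0.13 for 257714_at, with limma adjusted p of 0.403 and 0.398. The fifth, 250434_at, averaged 589 ± 45.2 with brassinazole and 579 ± 112 with auxin alone. Its log2 change of 0.04 was -0.06 without auxin replicate 3.

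H4, the core histone that pairs with H3, has 8 loci, which shared 5 probe sets in the annotation used. Of these probe sets, 3 have the suffix _s_at, which Affymetrix gives to probe sets that match several transcripts. The log2 change was positive in 4 of 5, with a median of 0.13, and 0 of 5 passed. Probe set 247692_s_at read 6623, 6606 and 6613 with brassinazole and 5815, 5720 and 5428 with auxin alone. The 3 brassinazole arrays were nearly equal and all above the auxin arrays, a 1.17-fold difference with the lowest adjusted p of the histones, 0.0729 in limma. Its log2 change of 0.23 ± 0.07 (SE) compares with the 0.25 at which it would have passed. Over the 15 alternatives the adjusted limma p of this probe set was 0.0614 to 0.19.

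The other H4 probe sets gave smaller or less even differences. Probe set 251924_at read 4250, 4075 and 4518 with brassinazole and 3974, 3888 and 3852 with auxin alone, with no overlap and a log2 change of 0.13. Probe set 261408_s_at read 1465, 1777 and 1362 with brassinazole and 1442, 1181 and 1355 with auxin alone, with overlap and a log2 change of 0.21 (adjusted p of 0.285 in limma), which was 0.13 without auxin replicate 2 and 0.10 without brassinazole replicate 2. Probe sets 266226_at and 252562_s_at had log2 changes of 0.08 and -0.02, and 252562_s_at turned to 0.01 with arrays centred on their median. The 5 H4 probe sets, all annotated to the same 8 loci, thus ran from a change near 0 to a difference close to the threshold.

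H3.3, the replacement form of H3, has 3 loci, which shared 3 probe sets in the annotation used. The annotation used held no H2A.Z probe set, so H3.3 alone stands for the replacement-type histones. Probe set 252849_at read 9971, 10770 and 10780 with brassinazole and 9474, 10680 and 10900 with auxin alone. Its groups overlapped throughout, and the log2 change was 0.02, with a 95% interval of -0.15 to 0.19. Probe set 252824_at read 8450, 9004 and 9779 with brassinazole and 8291, 9501 and 8042 with auxin alone. Its groups overlapped too, at a log2 change of 0.08 with an interval of -0.11 to 0.26. Probe set 250397_at read 7891, 8138 and 8213 with brassinazole and 9487, 6762 and 9263 with auxin alone. Its auxin arrays lay on both sides of the brassinazole arrays, and its log2 change of -0.06 had an interval of -0.29 to 0.18. The direction was not stable: 252849_at and 250397_at turned sign without auxin replicate 1, and 252849_at also under quantile normalization.

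Replication-type and replacement-type histones were then set side by side, as a description with no test. The 18 replication-type probe sets (8 H2B, 5 H3.1 and 5 H4) had a median log2 change of 0.13. The 3 replacement-type probe sets had one of 0.02. Positive changes were found in 14 of the 18 and negative ones in 4, against 47.3% positive over all probe sets tested. Of the 18, 7 had groups that did not overlap, all above with brassinazole, against 12.9% of all probe sets tested, and 0 were below, against 14.3%. The 5 H3.1 probe sets share their loci, as do the 5 H4 probe sets, so the 18 need not be separate measurements. None of the 3 replacement-type probe sets was free of overlap.

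The mean log2 level of the 18 replication-type probe sets, relative to the mean of the auxin arrays, was 0.11, 0.08 and 0.14 on the brassinazole arrays and 0.02, -0.01 and -0.01 on the auxin arrays. The arrays of the groups were apart, by a mean of 0.11. For the 3 H3.3 probe sets the same measure was -0.06, 0.03 and 0.07 on the brassinazole arrays and 0.00, -0.04 and 0.04 on the auxin arrays, which overlap. The difference between both types, replication minus replacement, was 0.17, 0.05 and 0.07 on the brassinazole arrays and 0.02, 0.03 and -0.05 on the auxin arrays. Brassinazole replicate 1 was the highest, and the mean difference between the groups was 0.09, or 0.06 without that array and 0.16 under quantile normalization. With 1 mean per locus or locus group it was 0.07. Restricted to H3, the measure of H3.1 minus H3.3 was 0.21, 0.09 and 0.10 on the brassinazole arrays and 0.15, -0.02 and -0.13 on the auxin arrays. Here auxin replicate 1 lay within the brassinazole range, and the mean difference of 0.14 was 0.07 without auxin replicate 3 and 0.21 without auxin replicate 1.

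**Figure D3:**
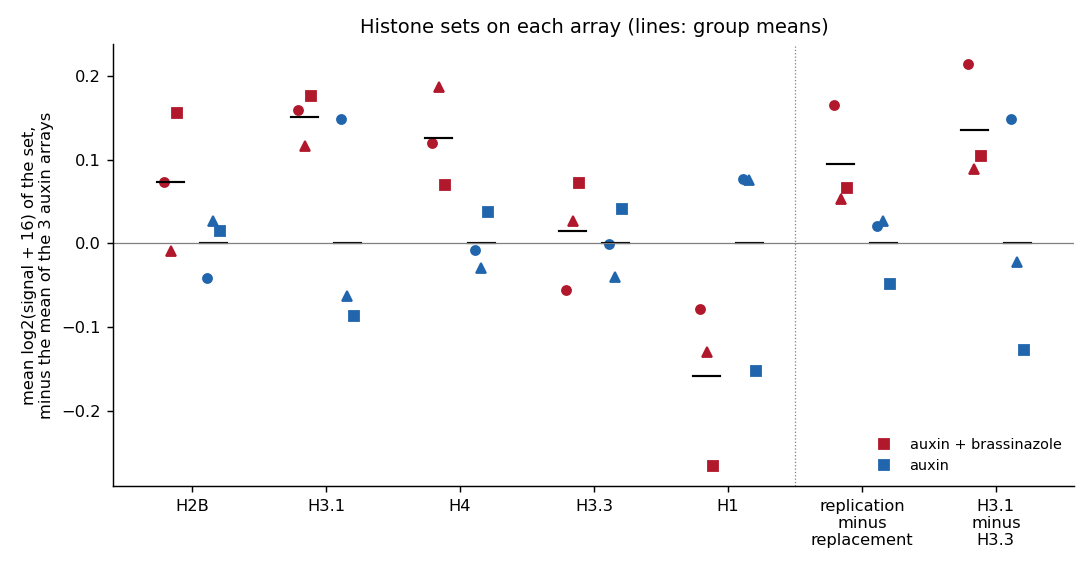
Mean log2(signal + 16) of each histone set on each array, minus the mean of the 3 auxin arrays; red, auxin plus brassinazole, blue, auxin, symbols as replicates 1 (circle), 2 (triangle) and 3 (square), lines as group means. The groups are apart for H4 and for replication minus replacement, and overlap for H2B, H3.1, H3.3, H1 and H3.1 minus H3.3. For replication minus replacement the gap is narrow, from 0.03 on auxin replicate 2 to 0.05 on brassinazole replicate 2.

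The linker histones H1, which compact the chromatin fibre, were measured at 3 of 3 loci, and 0 passed. AT1G06760 read 4281, 4130 and 3559 with brassinazole and 4090, 4224 and 4060 with auxin alone. Its log2 change was -0.05, and 0.03 without brassinazole replicate 3, the lowest array. AT2G30620 read 4699, 5072 and 5218 with brassinazole and 4913, 4986 and 4697 with auxin alone. Its groups overlapped, at a log2 change of 0.04 with a 95% interval of -0.12 to 0.20.

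HIS1-3, a linker histone known to be induced by drought and abscisic acid, had the largest log2 change of the histones in either direction. It read 209, 179 and 150 with brassinazole and 296, 281 and 188 with auxin alone. Auxin replicate 3 was low and lay within the brassinazole range, so the groups overlapped. The log2 change was -0.46 ± 0.16 (SE), or 0.728 times the level with auxin alone on the scale of signal + 16, with a 95% interval of -0.81 to -0.11 and an adjusted limma p of 0.108. Without auxin replicate 3 the change was -0.65 and passed (adjusted limma p of 0.0245), and without auxin replicate 1 and brassinazole replicate 3 together it was -0.23. Over all 15 alternatives it was negative, and its adjusted p ran from 0.0245 to 0.528 in limma.

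Genes that act with histones in dividing cells were few in the annotation used. Of 40 loci for DNA replication and S phase, 3 had a probe set of their own, of 28 for mitosis and cytokinesis 4, of 20 for histone chaperones and exchange factors 4, and of 28 for histone-modifying enzymes and HMG proteins 1. With limma, 0 of these 12 passed, against 7.52% of all probe sets, and 0 of 12 had an unadjusted p under 0.05, against 21.9%. With so few genes, a count of 0 says little beside those shares. Median log2 changes were -0.13, -0.04, -0.04 and -0.04 in that order, against -0.01 over all probe sets.

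Among the replication genes, PSF2, a subunit of the GINS complex of the replicative helicase, read 130, 120 and 118 with brassinazole and 153, 141 and 144 with auxin alone. Its groups were apart, with lower values with brassinazole, at a log2 change of -0.23 and an adjusted p of 0.312 in limma. PRL, the helicase subunit MCM7, averaged 392 ± 56.7 with brassinazole and 409 ± 45.6 with auxin alone (SD, n = 3 each). ICU2, the catalytic subunit of DNA polymerase alpha, averaged 99.6 ± 3.32 and 111 ± 18.9. The groups of both genes overlapped. All 3 replication genes thus had negative changes, of -0.06 to -0.23, as had 8998 of all 17059 probe sets tested. PRL turned to 0.02 without brassinazole replicate 3. Positive changes were seen in 14 of 18 replication-type histone probe sets, many of which share their loci, against 47.3% of all probe sets. The difference between these sets was not tested.

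Of the mitotic genes, the Aurora kinases AUR1 and AUR2 averaged 431 ± 18.7 and 276 ± 31.0 with brassinazole and 384 ± 35.8 and 254 ± 16.4 with auxin alone. AUR3, another Aurora kinase, averaged 116 ± 13.6 with brassinazole and 134 ± 20.5 with auxin alone. 3xHMG-box1, a protein of mitotic chromosomes, read 157, 149 and 90.0 with brassinazole and 148, 163 and 157 with auxin alone. Its log2 change of -0.25 rested on brassinazole replicate 3, and was -0.03 without that array. Of the chaperones, ASF1B, a carrier of newly made H3 and H4, averaged 354 ± 75.6 with brassinazole and 362 ± 72.8 with auxin alone, and SGA2 (ASF1A) 394 ± 36.8 and 406 ± 53.1. ATRX, a remodeller that deposits H3.3, read 210, 228 and 255 with brassinazole and 204, 182 and 194 with auxin alone. Its groups were apart, at a log2 change of 0.23 with an adjusted p of 0.25 in limma. AT4G37210 and UBP26, a protease that removes ubiquitin from H2B, had log2 changes of -0.04 each.

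Transcription factors of lateral root founder cells mark cells in which auxin is known to start divisions. Of the 4 listed, 3 were measured and 3 of 3 fell, against 4.08% of all probe sets, with a summed signal of 273 to 292 with brassinazole and 612 to 709 with auxin alone. Their part in the histone values was not tested. LBD29 read 83.5, 81.1 and 85.2 with brassinazole and 251, 209 and 276 with auxin alone, and fell by 1.39 on the log2 scale (adjusted limma p of 2.1e-05). LBD16 fell by 1.16, and PUCHI by 0.61 with an adjusted p of 0.0418 in limma, a call that was lost in 9 of 14 alternatives. None of the 24 histone intervals reaches a change as large as that of LBD16. The interval of HIS1-3, -0.81 to -0.11, does hold the smaller change of PUCHI. Listed markers of the root meristem had no probe set of their own, and of those of the shoot meristem only CLV3 did, at a signal of 2.26 to 5.29 with brassinazole and 5.01 to 11.3 with auxin alone, too dim to be tested.

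**Figure D4:**
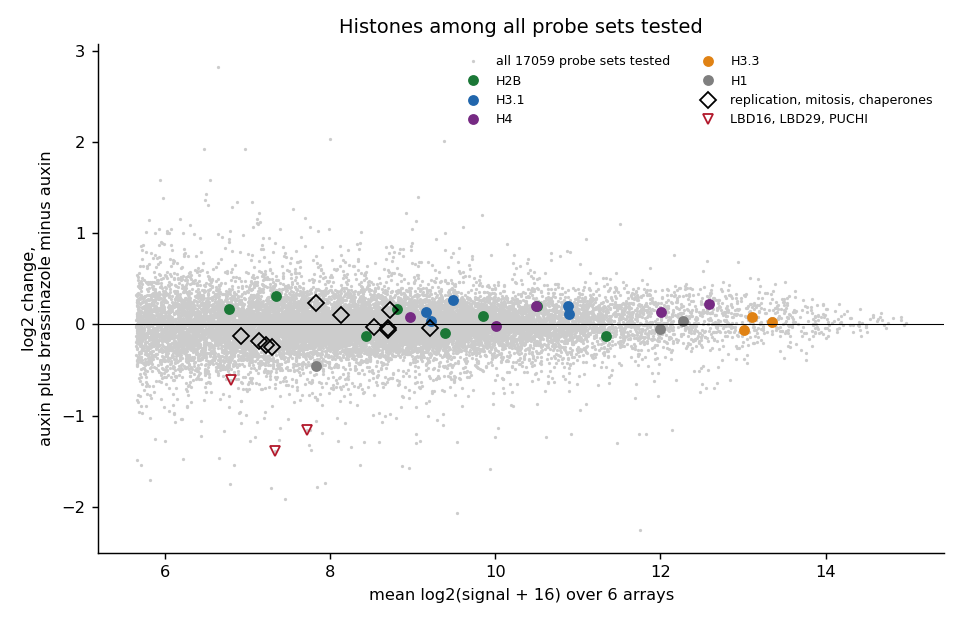
Log2 change, auxin plus brassinazole minus auxin, against mean log2(signal + 16) for all 17059 probe sets tested (grey), with histone probe sets coloured by family, replication, mitosis and chaperone genes as black diamonds, and lateral root founder genes as red triangles. The 24 histone probe sets lie between -0.46 and 0.31, while LBD16 and LBD29 lie below -1 and PUCHI lies at -0.61.

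Some histone genes lie near each other, by the order of protein-coding genes in the RefSeq table. Other consecutive histone loci of a chromosome lie far apart, with up to 3283 protein-coding genes between them. AT5G02570 (H2B) is next to HTA12 (AT5G02560), with 0 protein-coding genes between them, as are the H3.1 loci AT5G10390 and AT5G10400 and the H3.3 loci AT4G40030 and AT4G40040. AT2G28720 (H2B) has 1 such gene between it and an H4 locus, HTB1 has 2, HTB4 has 5 and AT3G53650 has 6. The H2B loci with an H4 locus so near had log2 changes of -0.09, 0.09, -0.13 and 0.17 in that order, none past the threshold. As the annotation does not tie the H4 probe sets to single loci, no H4 value can be given for the neighbours.

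By the median, the histone signals varied slightly less between arrays of a group than those of all probe sets, without matching for signal. The coefficient of variation within a group was 0.134% to 23.0% over the 24 probe sets, with a median of 7.38%, against a median of 8.96% over all probe sets tested. Among the least even, HIS1-3 varied by 16.7% with brassinazole and 23.0% with auxin alone, and AT3G53650 by 21.3% and 17.7%, in the same order.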

How the data were processed

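Sample titles gave the group and number of each array. Values are linear intensities as deposited by the authors, 1 per probe set and array, and the submitters' processing notes name MAS5, without a version. Detection calls were not used here. The mean over the probe sets left after trimming 2% at each end was 500.05 on all 6 arrays, so a shift of most transcripts would not be seen. Probe sets took their loci from the platform annotation and symbols from a RefSeq table of the TAIR10.1 assembly. Of 22810 probe sets, 13513 had 1 gene, 503 several and 8794 no entry. Of those with 1 gene, 13484 matched RefSeq. The 64 control probe sets stayed out of the tests.

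All values were put on the scale log2(value + 16). Probe sets under the 25th percentile of the mean were left out. The test was limma 3.58.1 under R 4.3.3, by lmFit and eBayes with trend, two-sided. Its p-values were adjusted by Benjamini-Hochberg over the 17059 probe sets kept, and those under 0.05 passed. The fit holds no replicate block. Changes are auxin plus brassinazole minus auxin, and intervals are 95% intervals of the fit. The steps were tested on simulated arrays.

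The histone loci, their types, the related lists and the naming rule were chosen with earlier results of these data known. The replication-minus-replacement comparison had been planned on probe sets of 1 gene. Since 0 replacement-type loci had one, probe sets shared by the loci of 1 variant were used as well, a change made after the annotation was seen. The rule named each histone locus with a probe set of its own. It gave every array for those past the threshold (there were 0), the 3 lowest p in each direction, the brightest of each family and the replacement-type probe sets. From each related list it took the 2 lowest p where 0 passed, AUR1 and the measured ASF1 chaperones. PRL, AUR2, AUR3, the other probe sets given by array and PUCHI were added after their values were seen, and tissue markers serve as checks. Other pseudocounts, filters, scalings, a fit without the trend, a replicate block and fits without single arrays were run as alternatives.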

Additional observations from a re-analysis of the deposited data

How the results depend on the processing

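In the 15 refits, 0 histone probe sets were called higher, and 1, HIS1-3, was called lower with the replicate block (adjusted limma p of 0.0357) and without auxin replicate 3 (0 to 1 over single arrays left out). Same-numbered arrays deviated together with correlations of only 0.0372 to 0.0625 over probe sets, though each correlated best with its own number, so the numbers are not taken as a pairing. The block gave 604 higher and 676 lower over all probe sets, against 586 and 696 without it. Those counts were 316 and 439 with no variance trend, 354 and 458 with auxin replicate 1 and brassinazole replicate 3 left out together, and 338 to 526 higher and 453 to 624 lower with single arrays left out. Centring on the median gave 676 higher and 609 lower.

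The direction held in every alternative for 17 of 24 histone probe sets, and 16 of 358 values turned, none past the threshold. With single arrays left out, the log2 change ran from -0.0614 to 0.186 for H3.1 250434_at, -0.105 to 0.0666 for H4 252562_s_at, -0.0001 to 0.1872 for H4 266226_at, -0.214 to 0.0298 for H3.3 250397_at, -0.0387 to 0.0624 for H3.3 252849_at and -0.1048 to 0.0278 for AT1G06760. Without a turn of sign, it ran from 0.0731 to 0.3315 for AT3G53650, 0.0437 to 0.155 for HTB1 and 0.0053 to 0.0805 for AT2G30620. H4 252562_s_at was 0.0053 with median centring, and H3.3 252849_at was -0.0459 under quantile normalization. With auxin replicate 1 and brassinazole replicate 3 both left out, H3.3 250397_at was 0.018, 252824_at -0.0031, 252849_at -0.0577 and AT1G06760 0.0219.

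Quantile normalization moved the replacement-type median to -0.0459 and the replication minus replacement difference to 0.1571. With single arrays left out, these ran from 0.0047 to 0.061 and from 0.0596 to 0.1156, the replication-type median from 0.1129 to 0.1418 and H3.1 minus H3.3, a measure added after seeing the data, from 0.0724 to 0.2104. Over probe sets of 1 locus, another setting chosen after seeing the data, the replication-type median was 0.1306.

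Among related genes with single arrays left out, PRL ran from -0.1699 to 0.024, SGA2 from -0.1356 to 0.0472, ASF1B from -0.1965 to 0.1362, AT4G37210 from -0.0725 to 0.0022, UBP26 from -0.0982 to 0.0797 and RCA from -0.0264 to 0.1435. With both named arrays left out, PRL was 0.0258, ASF1B 0.2551 and RCA -0.0046. The cause was not tested. The number of arrays limits the precision of all these values.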
